A study of Homo sapiens with 20 samples.

Results

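Surface molecules that let a cell bind, and signal to, cells of the immune system were followed through 20 U2OS libraries: the adhesion molecules ICAM1, ICAM3, ICAM5, VCAM1, CD44 and ALCAM, the costimulatory receptor CD40, and the ligand CD58. They were picked by name and are 8 of the 43366 genes in the count table, which holds all of them. U2OS is a human osteosarcoma cell line. The libraries were made from 5 WT clones and 5 clones labelled ZBTB48 KO, and each clone was sequenced once without treatment and once after 24 h in 250 U/ml IFNγ. ZBTB48 is a zinc-finger protein that binds telomeres and acts as a transcription factor, and IFNγ is the cytokine by which T and NK cells raise antigen presentation. The 4 groups are called WT, KO, WT IFNγ and KO IFNγ below, with 5 libraries in each, and the clones of a genotype served as its biological replicates. As clones of a single cancer line, they hold no leukocyte that could engage these molecules.

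ICAM1, ICAM3, ICAM5, VCAM1 and ALCAM belong to the immunoglobulin superfamily. The ICAMs are bound by the leukocyte β2 integrins such as LFA-1, VCAM1 by the α4 integrins, and ALCAM by CD6 on T cells. CD58 is the ligand of CD2 on T cells, CD44 is the main receptor for hyaluronan, and CD40, a member of the TNF receptor family, receives CD40 ligand from activated T cells and signals through TRAF adaptors to NF-κB. In many cell types IFNγ acts on genes whose promoters hold GAS or ISRE elements, and ICAM1, VCAM1 and CD40 are textbook examples of genes that cytokines induce on stromal and endothelial cells.

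Total counts per library ran from 46652288 to 72952859, so that 3 counts, taken as the floor, correspond to 0.0411 to 0.0643 CPM (counts per 1000000 counts of the library). The labels were compared with ZBTB48 itself, whose mRNA lay between 8.03 and 9.44 CPM in WT and between 1.29 and 11.3 CPM in KO libraries. An mRNA level does not show whether the protein was lost, and protein was not measured in these libraries. KO replicate 3 held the highest value of its group in both conditions (15.8 CPM after IFNγ), above every WT library of the same condition, so groups are given as labelled and results that turn on this clone are also given without it. CIITA, the master regulator of MHC class II genes and the subject of the study, averaged 3.19 ± 0.867 CPM in WT and 79.3 ± 31.1 CPM in WT IFNγ, and 2.03 ± 0.501 and 9.31 ± 6.05 CPM in KO and KO IFNγ (SD, n = 5). Of 8 markers of mesenchymal or osteosarcoma cells, 7 averaged over 1 CPM in every group (summed level 5478 to 17754 CPM), the exception being the collagen gene COL1A2. Leukocyte markers summed to between 1.34 and 20.2 CPM and endothelial markers to between 1.43 and 4.66 CPM. The T cell marker CD3E was at 0 in 15 of the 20 libraries or more, and ITGB2 was the single leukocyte marker that averaged over 1 CPM. Epithelial markers summed to between 247 and 974 CPM, most of it from 2 keratins. Group means were 152 to 197 CPM for KRT8 and 228 to 372 for KRT18, and at most 5.62 CPM for EPCAM, CDH1 and KRT5.

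The genes lie at 6 places in GRCh38. ICAM1 (chromosome 19, 10271120 to 10286615, plus strand), ICAM5 (chromosome 19, 10289952 to 10296778, plus strand) and ICAM3 (chromosome 19, 10333776 to 10339624, minus strand) form a cluster, with 3337 bases between ICAM1 and ICAM5 and 36998 between ICAM5 and ICAM3. VCAM1 (100719742 to 100739045, plus strand) and CD58 (116514534 to 116571026, minus strand) are on chromosome 1, CD40 on chromosome 20 (46118314 to 46129858, plus strand), CD44 on chromosome 11 (35139171 to 35232402, plus strand) and ALCAM on chromosome 3 (105366909 to 105576900, plus strand). Counts cover the exons of each gene, from 1652 bases for CD58 to 7078 for CD44. Exons of CD58 share 52 bases with LOC124904385 on the opposite strand and those of CD44 share 153 bases with CD44-AS1, and neither of these neighbours averaged above 0.173 CPM in any group.

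Promoters were available from RefSeq (GRCh38.p14) for 7 of the 8 genes, all but CD40, whose promoter was therefore not searched. The 250 bases before the start of transcription were searched on both strands for GAS (TTCNNNGAA), ISRE (GAAA repeated after any 2 bases) and NF-κB motifs. The NF-κB motif was GGGRNNYYCC, with R for A or G, Y for C or T and N for any base. Sequences that depart from these letters were not counted. The promoters shown hold a match, which stands in capitals. ICAM1 (chr19:10270870-10271119, plus strand) holds a GAS match 75 to 67 bases before the start, VCAM1 (chr1:100719492-100719741, plus strand) an NF-κB match at 62 to 53 bases and an ISRE match, read on the opposite strand, at 15 to 6 bases, and ICAM3 (chr19:10339625-10339874, minus strand) an NF-κB match at 56 to 47 bases:
ICAM1: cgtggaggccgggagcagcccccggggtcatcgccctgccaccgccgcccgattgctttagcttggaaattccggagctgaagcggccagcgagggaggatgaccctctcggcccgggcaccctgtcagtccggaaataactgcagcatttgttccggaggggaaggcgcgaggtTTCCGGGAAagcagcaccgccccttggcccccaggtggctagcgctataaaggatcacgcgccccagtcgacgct
VCAM1: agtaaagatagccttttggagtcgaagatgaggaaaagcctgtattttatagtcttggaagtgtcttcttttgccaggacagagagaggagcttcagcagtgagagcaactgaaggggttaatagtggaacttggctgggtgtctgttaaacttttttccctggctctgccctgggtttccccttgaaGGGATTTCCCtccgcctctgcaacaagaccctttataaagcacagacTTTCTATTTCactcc
ICAM3: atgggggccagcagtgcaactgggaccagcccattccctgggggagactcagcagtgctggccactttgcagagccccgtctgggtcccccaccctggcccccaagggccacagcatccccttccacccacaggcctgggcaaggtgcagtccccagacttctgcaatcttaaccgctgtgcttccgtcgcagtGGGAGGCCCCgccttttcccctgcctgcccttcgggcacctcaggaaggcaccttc
Among 35116 RefSeq promoters of this length, 6.57% held a GAS match, 3.02% an ISRE match and 9.96% an NF-κB match. The windows of ICAM5, CD58, CD44 and ALCAM held none of these letters. A match describes the letters alone, and binding was not measured here.

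Levels of the 8 genes spanned more than 4 orders on a per-length scale, and were compared with each other as RPKM (CPM per kilobase of exons). In WT, ALCAM was highest at 62.8 ± 9.14 RPKM, followed by CD44 at 30.3 ± 12.8, CD40 at 26.9 ± 4.78, CD58 at 9.51 ± 1.11 and ICAM3 at 2.51 ± 0.201 RPKM (SD, n = 5). ICAM1 reached 0.172 ± 0.137 RPKM, and ICAM5 and VCAM1 averaged 0.0183 and 0.00131 RPKM. The ranges of CD44 and CD40 overlapped, as did those of ICAM1 and ICAM5 and of ICAM5 and VCAM1, while every other pair of neighbours in this order was separate. The upper 5 genes included the same genes in all 4 groups. In WT IFNγ, CD40 rose to 62.3 ± 10.3 RPKM, above the mean of CD44 (40.9 ± 14.1) and with a range that met those of both CD44 and ALCAM (83.7 ± 12.6). KO IFNγ showed the order ALCAM, CD40, CD44, CD58 and ICAM3 too, at 74.4, 53.6, 27.5, 6.51 and 2.63 RPKM.

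**Figure D1:**
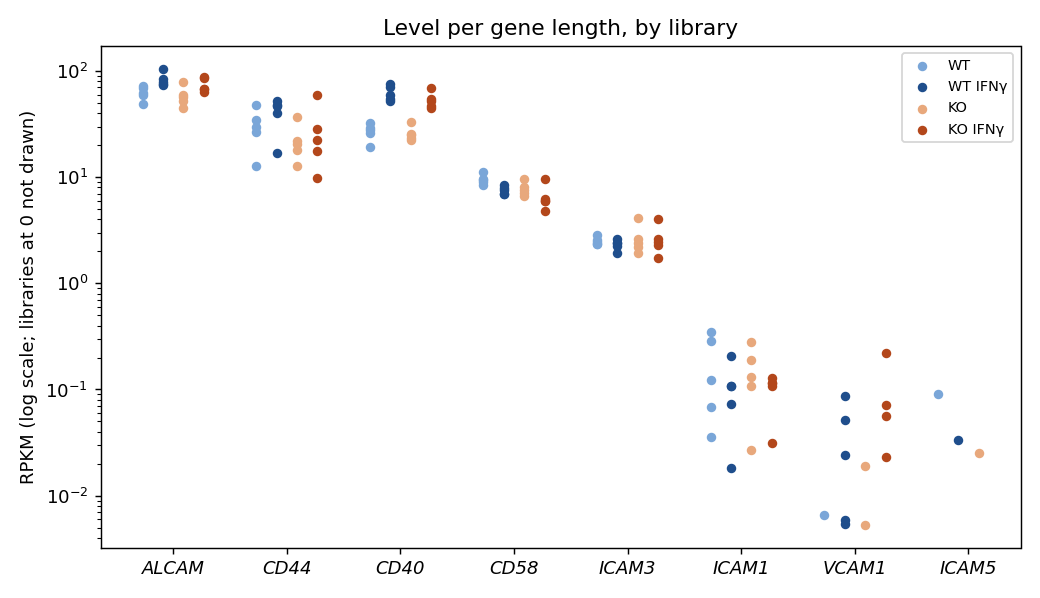
Level per gene length (RPKM, log axis) of the 8 genes in each of the 20 libraries, coloured by group; libraries at 0 are not drawn. ALCAM, CD44 and CD40 lie highest, CD58 and ICAM3 below them, and ICAM1, VCAM1 and ICAM5 under 1 RPKM in every library.

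CD40 was the one gene of the 8 called after IFNγ, meaning an adjusted p under 0.01 over all genes tested and a change of more than 2-fold, and it was called in both genotypes. In WT, replicates 1 to 5 held 66.9, 60.7, 44.7, 63.9 and 74.7 CPM, and after IFNγ the same clones held 164, 126, 120.1, 137 and 174 CPM. Libraries labelled KO held 76.02, 54.5, 59.02, 57.8 and 52.3 CPM untreated and 161, 119, 127, 105 and 108 CPM treated. Treated libraries lay above every untreated one in both genotypes, and the response was narrow across clones, from 1.05 to 1.42 log2 units in WT and from 0.85 to 1.13 in KO. The rise came to 2.35-fold in WT (95% interval 1.84 to 2.99, log2 fold change 1.23, SE 0.16, edgeR adjusted p = 0.00059). It was 2.07-fold in KO (1.65 to 2.59, log2 fold change 1.05, SE 0.15, adjusted p = 0.00194). Two-sided exact permutation tests gave p = 0.00794 in each genotype, the smallest that 5 against 5 libraries allow. Here and in later comparisons of treated with untreated libraries, these tests ignore the pairing by clone. Across all genes, 2.48% were called higher in WT and 1.70% in KO, and 6.68% and 6.07% had treated libraries wholly above the untreated ones. The KO call sits at the 2-fold line. It was lost without KO replicate 3 (log2 fold change 1.03, adjusted p = 0.0186), without KO replicate 4 (1.09, 0.0161) and without KO replicate 5 (1.05, 0.0136), and with library totals in place of scaling factors or with DESeq2 shrinkage the log2 fold change was 1.00 and 0.98.

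**Figure D2:**
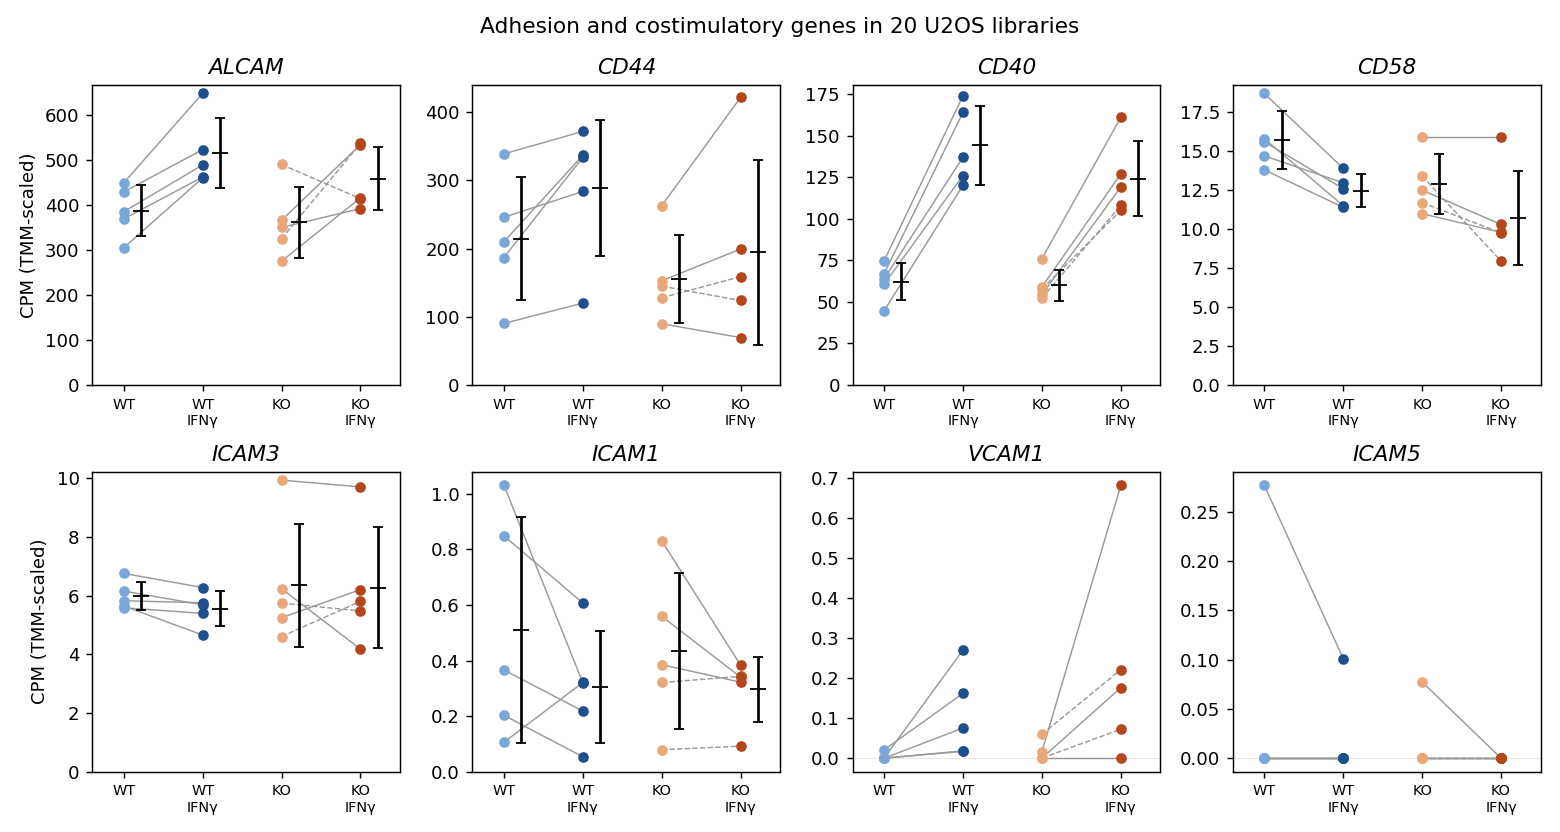
CPM scaled by TMM of each gene in the 20 libraries, 1 panel per gene with its own axis from 0. Points are libraries, lines join the treated and untreated library of a clone by its label (dashed for KO replicates 4 and 5), and black bars are the mean and SD of 5 libraries, not drawn for VCAM1 and ICAM5. All 10 lines of CD40 rise, and the treated WT libraries of ALCAM lie above the untreated ones.

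ALCAM, the most abundant of the group, was higher after IFNγ by a smaller factor. WT libraries held 305, 449, 369, 385 and 429 CPM, and 460.0, 648, 462, 489 and 523 CPM after IFNγ, with no overlap between the groups. The difference was 1.35-fold (1.10 to 1.65, log2 fold change 0.43, SE 0.13) and missed the threshold with clones taken as unpaired (adjusted p = 0.0602, exact permutation p = 0.00794). With the clone as a block, adjusted p was 4.37e-05, a level below 0.01 that 17.2% of all genes reached in that fit with a higher value after IFNγ. KO libraries held 275, 366, 350.2, 325 and 489.9 CPM untreated and 416, 534, 392, 537 and 414 CPM treated. These overlapped, 4 of 5 clones were higher by label, and replicate 5 held the highest untreated value. The KO estimate was 0.34 log2 units (-0.01 to 0.70, adjusted p = 0.229, and 0.113 with the clone block, in which 4.51% of all genes were higher at the threshold). Untreated and treated libraries of KO replicates 4 and 5 resembled each other crosswise over all genes. Exchanging them in the block, a choice made after seeing the data, gave adjusted p = 0.00688 for ALCAM and a higher value in 5 of 5 clones, while 11.1% of all genes were higher at the threshold in that fit.

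CD44 varied widely between clones, and the same clones were low or high in both conditions. WT replicates 1 to 5 held 210.1, 246, 339, 90.4 and 187 CPM, and 337, 284, 372, 120.1 and 334 CPM after IFNγ. KO replicates held 153, 89.8, 263, 128 and 145 CPM, and 199.5, 69.6, 422, 159 and 124 CPM after IFNγ. WT replicate 4 and KO replicate 2 were lowest and WT replicate 3 and KO replicate 3 highest of their groups in both conditions. The SD within groups was 0.74 on the log2 scale, larger than for 88.8% of 15115 genes at or above 1 CPM, whose median was 0.33. CD40, ALCAM and CD58 had an SD of 0.24, 0.24 and 0.23, below that median. All 5 WT clones were higher after IFNγ, by 0.13 to 0.84 log2 units, which 23.2% of all genes also were. The WT estimate of 0.45 (-0.31 to 1.21) had an adjusted p of 0.478, or 0.0105 with the clone block, and that of libraries labelled KO was 0.32 (-0.62 to 1.27, adjusted p = 0.715). Without KO replicate 3 the KO estimate was 0.10.

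CD58 was lower after IFNγ in every WT clone, by 0.18 to 0.45 log2 units, as were 27.4% of all genes. WT libraries held 15.6, 15.8, 14.7, 13.8 and 18.7 CPM, and 12.6, 11.5, 12.97, 11.4 and 13.9 CPM after treatment, so that 1 treated library reached into the untreated range. The level after treatment was 0.80 of the untreated one (0.66 to 0.97, log2 fold change -0.32, SE 0.13, adjusted p = 0.143, exact permutation p = 0.0159). With the clone block the adjusted p was 0.00434, and 17.1% of all genes were lower at that threshold. KO libraries held 12.5, 10.99, 15.9, 13.4 and 11.7 CPM untreated and 10.3, 9.79, 15.9, 7.95 and 9.76 CPM treated. KO replicate 3 stayed at 15.9 CPM while the other 4 clones were lower, and the KO estimate was -0.26 (-0.70 to 0.17, adjusted p = 0.48). Without KO replicate 3 it was -0.36 and without KO replicate 4, the lowest treated library, -0.16. IGSF3, another immunoglobulin-superfamily gene 3372 bases from CD58 on the same strand, was lower after IFNγ in WT (log2 fold change -0.80, adjusted p = 0.000793) and in KO (-0.92, adjusted p = 0.00424), within the 2-fold line.

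ICAM1, the best known cytokine-induced adhesion molecule, had few counts in these cells and no rise was detected. WT libraries held 22, 6, 10, 52 and 58 counts, and 12, 19, 4, 36 and 17 counts after IFNγ. KO libraries held 43, 19, 34, 19 and 4 counts untreated and 24, 22, 18, 19 and 5 counts treated. Means went from 0.510 ± 0.406 to 0.304 ± 0.202 CPM in WT and from 0.435 ± 0.280 to 0.296 ± 0.116 CPM in KO (SD, n = 5), with overlapping ranges. The log2 fold changes were -0.74 (-2.23 to 0.75, adjusted p = 0.568) and -0.55 (-1.77 to 0.67, adjusted p = 0.61). Without WT replicate 5 the WT estimate was -0.34, and without KO replicate 1 the KO estimate was -0.27. With all clones the upper limits correspond to 1.69-fold in WT and 1.59-fold in KO, each under the lower limit of CD40 in the same genotype. The GAS match shown above for ICAM1 stands before a gene whose 20 libraries all lay at or below 1.03 CPM.

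ICAM3 was expressed at a low level, and its estimates after IFNγ were the nearest to 0 of the tested genes. WT libraries held 5.59, 6.76, 5.83, 6.16 and 5.65 CPM, and 5.40, 6.28, 5.76, 5.69 and 4.66 CPM after IFNγ. KO libraries held 5.25, 9.94, 6.24, 5.75 and 4.61 CPM untreated and 6.21, 9.71, 4.18, 5.48 and 5.81 CPM treated, with replicate 2 highest in both conditions. The log2 fold changes were -0.09 (-0.42 to 0.23, adjusted p = 0.763) in WT and -0.02 (-0.62 to 0.58, adjusted p = 0.979) in KO. Around the ICAM cluster, the RNA-binding protein gene RAVER1, 247 bases from ICAM3, averaged 113 CPM in WT, and TYK2, a kinase of cytokine receptors, 55.6 CPM. Their log2 fold changes after IFNγ in WT were 0.09 and -0.08 (adjusted p = 0.677 and 0.708). ICAM4, which lies between ICAM1 and ICAM5, had at most 2 counts in any library.

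VCAM1 was all but absent without treatment and appeared at a trace after it. Untreated WT libraries held 0, 0, 1, 0 and 0 counts and KO libraries 0, 0, 1, 0 and 3. After IFNγ, WT held 1, 1, 12, 16 and 4 counts and KO 11, 0, 36, 4 and 12. Counts lay above the floor of 3 in 3 of 5 WT and 4 of 5 KO libraries, and KO replicate 3 was the highest. Summed counts went from 1 to 34 in WT, a ratio of 30.95 relative to library size (95% interval 5.19 to 1258), and from 4 to 63 in KO (14.1, 5.25 to 53.4). These intervals cover counting error only. As clones were left out, a choice made after seeing the data, the ratio fell to 16.03 without WT replicate 4 (2.53 to 668) and to 7.70 without KO replicate 3 (27 against 3 counts, 2.37 to 39.7), and was 45.3 without KO replicate 5 (7.77 to 1824). VCAM1 missed the filter on low counts. With no filter, edgeR gave adjusted p = 0.061 in WT and 0.121 in KO, and the two-sided exact permutation p values were 0.0238 and 0.0556. With 1 clone left out the exact p values ran from 0.0286 to 0.0857 in WT and from 0.0286 to 0.171 in KO. The highest level of any library was 0.681 CPM, in KO IFNγ replicate 3.

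ICAM5, known as a molecule of forebrain neurons, was at 0 counts in 17 of the 20 libraries. The exceptions were WT replicate 4, with 17 counts untreated and 6 after IFNγ, and KO replicate 1, with 4 counts untreated. It too missed the filter, so that 6 of the 8 genes were tested in each comparison.

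**Figure D3:**
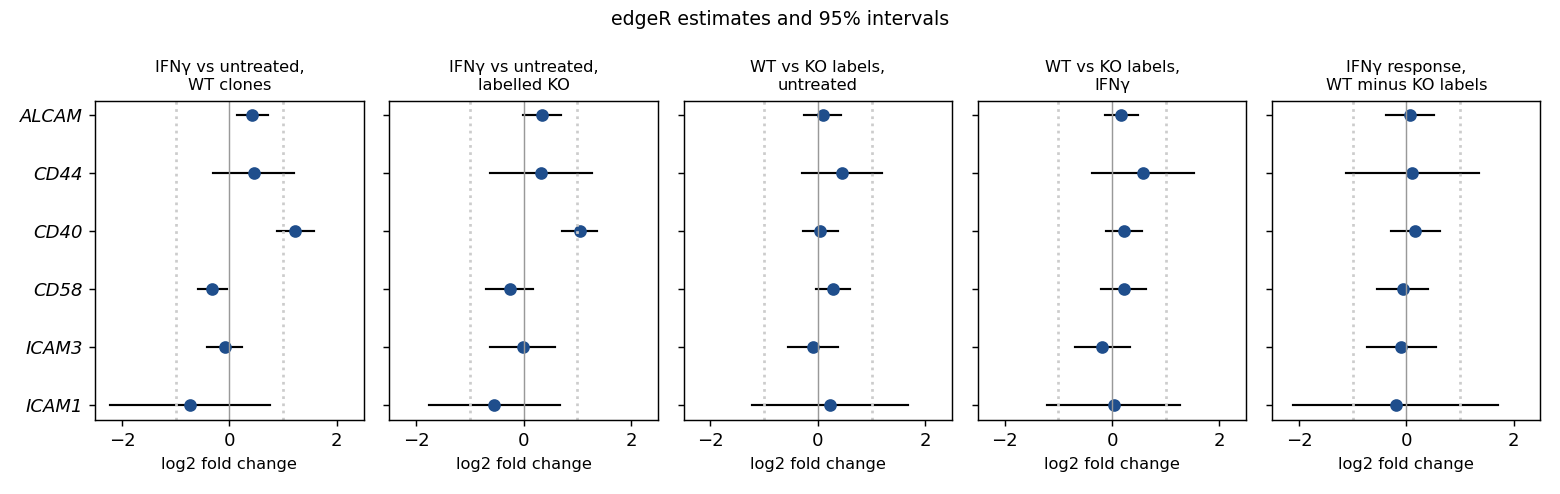
Log2 fold changes from edgeR (points) with 95% intervals (lines) for the 6 genes that passed the filter, in the 4 comparisons of 5 against 5 libraries and for the difference between the responses. Dotted lines mark 2-fold; CD40 after IFNγ is the sole estimate beyond them, at 1.23 in WT and 1.05 in KO.

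Set against KO labels, WT showed no called difference in any of the 6 tested genes, untreated or treated. Called genes made up 0.0154% of all genes in untreated and 0.0155% in treated libraries. CD40 differed by 0.04 log2 units untreated (WT minus KO, -0.28 to 0.37) and by 0.22 after IFNγ (-0.11 to 0.55), so a genotype difference of 2-fold lies outside both intervals. ALCAM differed by 0.09 (-0.26 to 0.44) and 0.17 (-0.14 to 0.48). CD58 was 0.28 higher in untreated WT (-0.04 to 0.59, adjusted p = 0.98, exact permutation p = 0.0476) and 0.22 higher in treated WT (-0.20 to 0.64, adjusted p = 0.996). Without KO replicate 3 these were 0.36 and 0.40 (adjusted p = 0.999 and 0.997), and without KO replicate 4 the treated value was 0.13. CD44 differed by 0.45 (-0.29 to 1.19) and 0.58 (-0.37 to 1.52), intervals that include a 2-fold difference, and without KO replicate 3 the estimates were 0.72 and 1.07 (adjusted p = 0.999 and 0.997). ICAM3 differed by -0.09 (-0.56 to 0.38) and -0.18 (-0.69 to 0.34). ICAM1 differed by 0.22 (-1.23 to 1.68) and 0.03 (-1.21 to 1.27), intervals that include a 2-fold difference of either sign. For VCAM1 after IFNγ, WT held 34 and KO 63 counts in sum, a ratio of 0.527 (0.337 to 0.812, counting error only), while the permutation over libraries gave an exact p of 0.46. That ratio rested on KO replicate 3, without which 34 counts stood against 27 at a ratio of 0.999 (0.585 to 1.72). It was 0.345 without WT replicate 4.

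Whether genotype altered the size of the IFNγ response was tested as an interaction over all 20 libraries, taken as unpaired. The edgeR intervals of this fit therefore ignore the pairing by clone. With the clone as a block, 0 of 21052 genes were called too. No gene of the 8 and none of the 21052 genes tested was called (edgeR, 0%; 86 genes had an unadjusted p under 0.05, and DESeq2 without shrinkage also called 0). CIITA was therefore not called either, though its mean went from 3.19 to 79.3 CPM in WT and from 2.03 to 9.31 CPM in KO. The absence of a call in this fit thus does not show that responses were equal. For CD40 the WT response exceeded that of KO by 0.17 log2 units (-0.29 to 0.62, adjusted p = 1.00). Clone by clone it was 1.22 ± 0.15 in WT and 1.04 ± 0.11 in KO (SD, n = 5, two-sided exact permutation p = 0.0873). For CD44 the clone-wise responses were 0.45 ± 0.30 and 0.16 ± 0.44 (exact permutation p = 0.262), and for ALCAM 0.42 ± 0.14 and 0.36 ± 0.40 (p = 0.81). CD58, ICAM3 and ICAM1 differed by -0.07 (-0.55 to 0.41), -0.09 (-0.74 to 0.55) and -0.20 (-2.11 to 1.71).

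Most binding partners of these molecules were too low to test. Of 13, 6 passed the filter and none was called after IFNγ (median log2 fold change -0.32 in WT and -0.37 in KO, against -0.030 and -0.032 over all genes). CD40LG was at 0 in all 20 libraries. ITGB2, the β2 integrin chain, averaged 7.58 ± 5.02 CPM in WT and ITGAX, one of its α chains, 7.44 ± 5.74 CPM (SD, n = 5), while ITGAL, the α chain of LFA-1, averaged at most 0.116 CPM in any group. ITGB1 was abundant at 2069 ± 396 CPM in WT, and ITGA4, its partner in the VCAM1 receptor, averaged 9.40 ± 3.22 CPM.

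Of 11 genes that act downstream of CD40, 3 were called higher in WT. There, 10 of 11 had a log2 fold change above 0, with a median of 0.66 against -0.030 over all genes. An unadjusted edgeR p under 0.05 was reached by 9 of the 11, and by 4868 of all 19522 genes tested. TRAF1, an adaptor of TNF receptors, rose by 3.88 (SE 0.80, adjusted p = 0.0095), RELB, an NF-κB subunit, by 1.13 (SE 0.22, adjusted p = 0.00675), and MAP3K14, the kinase NIK of the non-canonical pathway, by 1.10 (SE 0.21, adjusted p = 0.00648). In KO, 9 of 11 were above 0 with a median of 0.85 (-0.032 over all genes), and none was called. There, 3 of the 11 had an unadjusted edgeR p under 0.05, as had 4548 of all 19385 genes tested, a similar share. The KO values were 3.67 for TRAF1 (adjusted p = 0.284), 1.25 for RELB (0.26) and 1.02 for MAP3K14 (0.0695). TRAF1 varied widely, with 9.06 ± 9.36 CPM in WT IFNγ and 32.9 ± 65.7 CPM in KO IFNγ. The part of CD40 in these values was not tested.

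Other costimulatory ligands moved in both directions. Of 12 genes, 7 were tested, 1 was called higher in WT and 1 lower in KO (medians 0.15 and 0.14). TNFRSF14 (HVEM), which binds BTLA and LIGHT, rose by 2.39 log2 units in WT (SE 0.35, adjusted p = 0.0013), from 4.79 to 24.9 CPM, with a KO value of 2.10 (SE 0.86, adjusted p = 0.166). TNFSF9, the ligand of 4-1BB, fell by 1.03 in KO (SE 0.14, adjusted p = 0.00158), and its WT value of -1.03 had an adjusted p of 0.0105. CD80 and CD86, the ligands of CD28, did not pass the filter and averaged at most 0.157 CPM in any group.

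Among 25 other adhesion genes, most of them of the immunoglobulin superfamily, 22 were tested. Values were below 0 for 16 in WT and 17 in KO (medians -0.36 and -0.31, against -0.030 and -0.032 over all genes). CD47, the ligand of SIRPα that inhibits phagocytosis, was the one called. It rose from 49.5 ± 8.18 to 125 ± 16.1 CPM in WT (log2 fold change 1.35, SE 0.13, adjusted p = 8.74e-05) and from 46.4 ± 10.2 to 124 ± 26.4 CPM in KO (1.42, SE 0.20, adjusted p = 0.00194). Of 13 genes around CD44 and hyaluronan, CD74 was the one called. CD74 is both the MHC class II invariant chain and a receptor that pairs with CD44, and its mean went from 0.270 to 858 ± 413 CPM in WT (log2 fold change 11.63, adjusted p = 2.68e-07) and from 0.311 to 126 ± 187 CPM in KO (8.65, adjusted p = 0.00379). KO IFNγ replicates 1 to 5 held 11.3, 4.91, 152, 443 and 20.97 CPM, all above the untreated mean and 2 of them above 100 CPM. Between genotypes after IFNγ, CD74 was 2.75 log2 units higher in WT (SE 1.06, edgeR adjusted p = 0.996), which was not called. The study reported lower CD74 in treated KO clones by qPCR and at the protein level. The medians of that list were -0.28 and -0.52, and HAS2, a hyaluronan synthase, was at -1.41 in WT (adjusted p = 0.0361) and -0.99 in KO (adjusted p = 0.629). None of 6 proteases and inhibitors that govern shedding was called (medians 0.03 and 0.09). ADAM17, a protease that sheds several adhesion molecules, had the lowest adjusted p of them, at 0.85 log2 units in WT (adjusted p = 0.00108) and 0.93 in KO (adjusted p = 0.0273). When clones were left out one at a time, also chosen after seeing the data, the WT calls of CD47 and CD74 held each time. The WT call of RELB was lost whichever WT clone was left out (adjusted p 0.0106 to 0.0447). That of TRAF1 held only without replicate 3, and was otherwise lost with adjusted p of up to 0.0588. That of MAP3K14 held only without replicate 3 or 5, with adjusted p of up to 0.0499 otherwise. That of TNFRSF14 was lost without replicate 2 or 5 (adjusted p = 0.0143 and 0.0103). In KO, the calls of CD47, CD74 and TNFSF9 were lost without replicate 1, 3 or 5 (adjusted p 0.014 to 0.0334), and those of CD47 and CD74 without replicate 4 too (log2 fold change 1.30 and 7.30, adjusted p = 0.0247 and 0.0175). Over the 80 genes of these lists, 6 were called higher and 0 lower in WT, 2 higher and 1 lower in KO, and none between genotypes, where 0.0154% and 0.0155% of all genes were called. These are 6 of 64 and 3 of 65 tested, while 2.48% of all genes were called higher and 0.512% lower in WT, and 1.70% and 0.258% in KO.

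**Figure D4:**
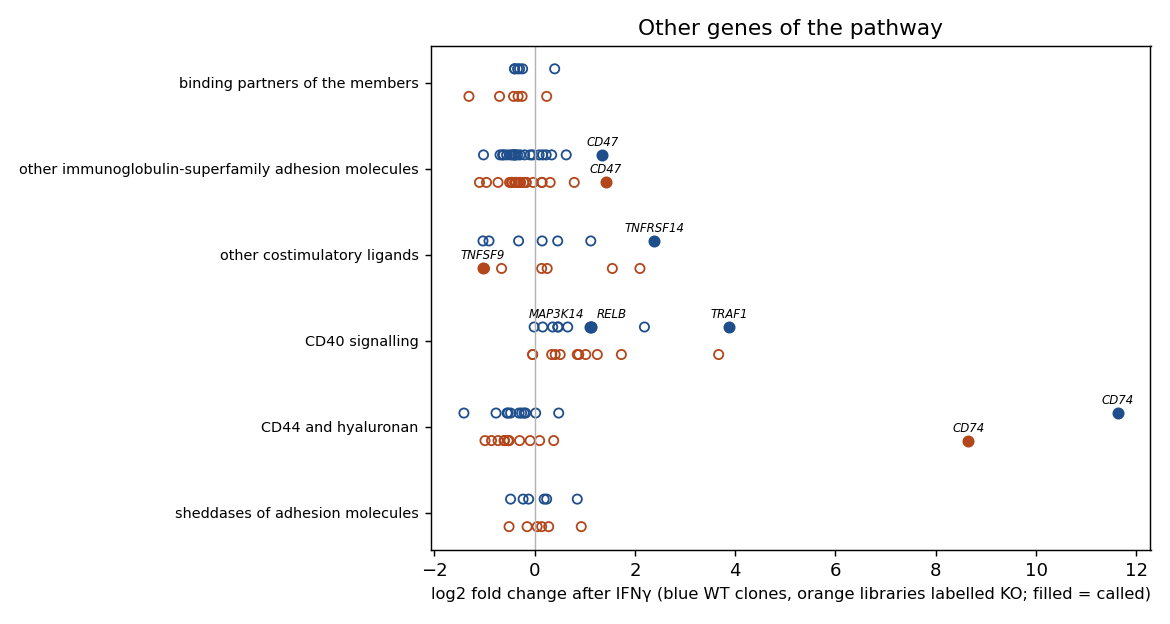
Log2 fold change after IFNγ of the tested genes in 6 lists around these molecules, with WT clones in blue and libraries labelled KO in orange; filled points were called and carry their names. With all clones in the fit, CD47 and CD74 are filled in both genotypes. TRAF1, RELB, MAP3K14 and TNFRSF14 are filled in WT alone, and TNFSF9, which was lower, in KO alone. For none of these was the difference between genotypes called.

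The pattern of each gene over the 20 libraries was set beside those of all 21052 genes that passed the filter. These correlations describe log2 CPM values that share treatment, clone and scaling, and carry no test. CD40 was most like IL23A (r = 0.954), DDX19B (0.948) and LOC124900372 (0.946). IL23A, a subunit of the cytokine IL-23, averaged 0.531 CPM in WT and 1.54 in WT IFNγ. After the mean of each group was subtracted, CD40 was most like OPLAH (0.911), ITPKC (0.894) and DGKA (0.879). CD44 was most like SPHK1, the sphingosine kinase, in the plain measure (0.934), ahead of COL22A1 (0.876) and FMNL3 (0.869). Within groups, CD44 was most like TNIP1 (0.947), SPHK1 (0.941) and GYG1 (0.920). ALCAM was most like C12orf4 (0.847), TNFRSF1A (0.827) and PARP11 (0.821), and within groups NIPSNAP1 (0.850), GGNBP2 (0.834) and GUSB (0.816). ICAM3 was most like CARM1 (0.856), BCR (0.854) and EPB41L4B (0.851), and within groups E2F1 (0.908), SLC25A23 (0.893) and HNRNPM (0.887). Among the 3 genes most like CD58 were ST3GAL6 (0.847) and PLEKHM1 (0.840), and within groups it was most like CDK7 (0.873), LOC101928143 (0.855) and RILP (0.848). ICAM1, with few counts, had ARHGEF19 (0.795) and ISCU (0.794) among the 3 genes most like it, and within groups LOC124907827 (0.822) and ISCU (0.791). Among themselves the 6 genes were loosely related. CD40 and ALCAM correlated at 0.54 over the 20 libraries and at -0.36 within groups, CD58 and CD44 at 0.47 and 0.63, and ICAM3 and CD44 at -0.58 and -0.56.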

How the data were processed

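Polyadenylated RNA of U2OS clones was sequenced as stranded paired-end libraries. The authors aligned reads to GRCh38 with STAR 2.7.9a, kept unique mappers and counted them over RefSeq exons with featureCounts 2.4.0, and deposited raw counts that carry no normalization. The strand setting of the counting is not given in the sources used here. All 20 count columns were matched to their samples by name.

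Counts were tested with edgeR 4.0.16 in R 4.3.3 (TMM scaling, filterByExpr, robust quasi-likelihood test, Benjamini-Hochberg adjustment over all genes tested), on the 10 libraries compared or, for the difference between responses, on all 20. A gene was called at adjusted p under 0.01 and more than 2-fold, the cut-offs of the study. The study's own tool, DESeq2 (1.42.0 here), with and without shrinkage, other scalings, no filter, all libraries together, another cut-off, a replicate block and leaving out each clone were alternatives. Standard errors came from the F statistics. Exact permutation tests used log2(CPM + 0.1) and 252 permutations. Those of treated against untreated libraries shuffled libraries without regard to clone. Their p values therefore ignore the pairing and are not exact for paired libraries. RPKM used the summed exon length. Depth (46652288 to 72952859 counts) limits genes near 3 counts. The fits were tested on simulated data.

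Treated and untreated libraries of a clone are paired by their clone labels. Deviations from group means over 21052 genes correlated at r = 0.59 to 0.77 between paired WT libraries and at 0.60, 0.77 and 0.57 for KO replicates 1 to 3, but at -0.03 and 0.03 for KO replicates 4 and 5, which correlated at 0.53 and 0.61 when exchanged. Genes are not independent replicates.

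The genes, the lists of related genes, the marker lists and the motifs were chosen with earlier results of these data known. Named besides these were called list genes, the nearest neighbours within 50 kb, and for each tested gene the 3 with the highest Pearson r in each of the 2 measures; some of these and a marker are not reported here. RAVER1, TYK2, IGSF3, HAS2, ADAM17 and unexpressed list genes were singled out after their values were seen.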

Additional observations from a re-analysis of the deposited data

Results flagged for a closer look

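In 5 of 29 groups of 5 libraries examined, 1 library stood further from the rest than Dixon's 95% criterion of 0.71 (its gap to the nearest library over the group's range), and about 1 group in 20 does so by chance. That rate does not apply to the 3 groups of ICAM5, where the other 4 libraries were at 0 and the ratio is 1.00 by construction. KO replicate 1 held 76.02 CPM of CD40, against 59.02 in the next KO library (ratio 0.72), and all 5 KO clones still had higher CD40 after IFNγ. KO IFNγ replicate 5 held 0.0922 CPM of ICAM1, below the next library at 0.322 (ratio 0.79), which corresponds to 5 counts. ICAM5 was detected in WT replicate 4 alone of the WT libraries (0.277 CPM), again in WT IFNγ replicate 4 (0.101 CPM), the same clone, and in KO replicate 1 alone of the KO libraries (0.0773 CPM). The cause of these values was not tested.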

How the results depend on the processing

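Single-gene estimates kept their direction and side of the threshold in 430 of the 450 repeats, lost the call in 5 and changed sign in 15. Most of these repeats concern estimates that were not called, which count as kept when the sign held and no call arose. The call of CD40 after IFNγ was kept in 8 of 13 repeats in KO. All 5 lost calls were CD40 in libraries labelled KO, where the count of called genes among the 6 tested went from 1 to 0 with library totals (log2 fold change 1.00) and with DESeq2 shrinkage (0.98, adjusted p = 8.3e-09), and ranged from 0 to 1 as clones were left out. In WT the CD40 call held in all 12 alternatives (adjusted p 1.54e-10 to 0.00692). The sign changes concern estimates near 0 that were not called. With the replicate block, ICAM1 between genotypes moved to -0.03 untreated and -0.11 treated, although the numbers of WT and KO clones share only a name. As clones were left out, the WT minus KO difference ranged from -0.19 to 0.59 for ICAM1, -0.19 to 0.12 for ICAM3 and -0.03 to 0.14 for CD40 untreated, and from -0.38 to 0.31 for ICAM1 and -0.29 to 0.04 for ICAM3 treated. ICAM3 after IFNγ in KO ranged from -0.08 to 0.09, and the difference between responses from -0.46 to 0.20 for ICAM1, -0.18 to 0.03 for CD58 and -0.09 to 0.17 for ALCAM. The cause was not tested. The replicate block changed no call among these genes, but raised the calls over all genes from 585 to 1414 in WT and from 379 to 721 in KO (1208 with KO replicates 4 and 5 exchanged, chosen after seeing the data), and DESeq2 without shrinkage called 976 and 825. At adjusted p under 0.05 and any fold, 2202 and 1528 genes passed. In KO, DESeq2 with shrinkage called 616 and all 20 libraries together 642. Calls fell to 355 and 318 without WT replicates 1 and 2, and to 167, 160, 131 and 142 without KO replicates 1, 3, 4 and 5. Between genotypes, the 3 calls untreated and 3 treated became 13 and 16 with DESeq2 unshrunk, and 1 to 6 elsewhere. DESeq2 shrinkage for the difference between responses was not run. Depth limits ICAM1, VCAM1 and ICAM5.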
